A study of Homo sapiens with 10 samples.

Results

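A253 is an established human cell line from a squamous cell carcinoma of the salivary gland. The cells described here are Cl10, a clone of A253 in which 1 copy of DUSP1 has lost exon 2, set against A253 control cells that carry a guide RNA against dTomato, a fluorescent protein gene with no counterpart in the human genome. The comparison rests on the 2 libraries labelled clone 10 and the 2 libraries of the first dTomato guide control, which are 4 of the 10 samples of the series, chosen by their labels and not by any measured value. The 2 libraries of Cl1, another heterozygous clone of the same experiment, are used further on as the group most like Cl10. All 3 groups were transduced with a lentiviral guide vector under puromycin selection, then with the lentiCas9-Blast vector under blasticidin, and were grown in DMEM with 10% fetal bovine serum. Cl10 descends from 1 cell picked by PCR of genomic DNA, whereas the control is not described as a clone, so a property of the clone and an effect of the deletion cannot be told apart. Nothing in the labels says that the 2 libraries of a group came from separate cultures, so every p-value measures only the spread between these libraries, which may be technical. Both clones were kept because DUSP1 protein was not seen in them, and the authors name small insertions or deletions in the remaining copy as a possibility, which was not tested here, so Cl10 cannot be taken as a loss of 1 copy alone. The question the design asks is which genes differ when DUSP1 is disrupted.

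DUSP1 encodes a dual-specificity phosphatase of the nucleus that removes phosphate from both the threonine and the tyrosine of activated ERK, JNK and p38 kinases. Cells make it quickly after growth factors or stress, so that the kinases that induce it are also switched off by it. ERK drives growth factor responses in epithelial cells, JNK and p38 respond to stress and cytokines, and all of them act on AP-1 transcription factors such as JUN and FOS.

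The deletion was made with a pair of guides in the introns on either side of exon 2, and their sequences are shown because they define the allele that Cl10 carries. Both match the plus strand of hg38, while DUSP1 (ENSG00000120129, chr5:172768096-172771195) is read from the minus strand and has 4 exons. The guide in intron 1 lies at chr5:172770388-172770407 and the guide in intron 2 at chr5:172769936-172769955, with the 3 bases of the PAM in capitals after each guide.
sgHDUSP1_int1: gctggaagtttacatcggaaAGG
sgHDUSP1_int2: ggaactaagcccatttgcctGGG
The predicted cuts lie 452 bases apart and enclose the 146 bases of exon 2 (chr5:172770161-172770306, minus strand), which are printed 5′ to 3′ as the part of the transcript that the edited copy lacks.
DUSP1 exon 2: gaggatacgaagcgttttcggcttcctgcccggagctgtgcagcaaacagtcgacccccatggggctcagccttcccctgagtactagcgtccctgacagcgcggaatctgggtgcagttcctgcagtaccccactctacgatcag

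The counts summed to between 47016495 and 66584988 per library. At this depth 19875 of 58735 genes could be tested. The 10 most abundant genes took between 4.13% and 5.31% of the counts of these 4 libraries, and the mitochondrially encoded genes took 3.71% and 4.06% in the control libraries against 2.74% and 2.72% in Cl10. The 2 control libraries differed more from each other than those of Cl10 did. In a chi-square test of their counts, 58.52% of 15278 genes had a p under 0.05 in the control pair, against 23.57% of 14925 in the Cl10 pair. The label of a squamous carcinoma line held against its markers, since each of the 10 squamous epithelial markers was tested and their counts summed to between 14112 and 14345 CPM (counts scaled to a common library total) in the control and between 15578 and 15973 in Cl10. KRT5 (keratin 5) had 262070 and 272100 normalized counts in the control libraries and 269250 and 255980 in Cl10, where a normalized count is the count scaled by TMM factors to the mean library total. Markers of other cell types were far lower. Of the 8 acinar markers 2 were tested, and they summed to 1.02 CPM or less in every library. Among leukocyte markers CD2 had 0 counts in every library, and the 3 that were tested, of 8, summed to between 8.32 and 9.08 CPM in the control and between 13.3 and 14.5 in Cl10. Fibroblast markers (3 of 8 tested, with LUM and THY1 at 0 in all libraries) summed to between 45.1 and 51.8 CPM in the control and 30.9 and 32.8 in Cl10. Endothelial markers (3 of 6 tested, KDR at 0) ranged from 3.16 to 4.85 CPM in the control and from 3.79 to 4.65 in Cl10, and myoepithelial markers (5 of 6 tested) from 56.8 to 82.4 and from 77.6 to 83.9. Single markers of these lists were called, namely ITGAM (1.10), CDH5 (2.28) and ACTA2 (-2.87) on the log2 scale of Cl10 over control, of which CDH5 did not pass without the first Cl10 library (edgeR adjusted p = 0.288). Whether other cells or the mitochondrial share play a part in the results was not tested.

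Cl10 differed from the control in a large part of its expressed genes. At an adjusted p under 0.05 from edgeR's quasi-likelihood test, 4103 of the 19875 genes tested were higher in Cl10 (20.6%) and 4336 were lower (21.8%). In the following, a gene that passed this test is said to have risen or fallen. A gene is called when it also changed by more than 1 on the log2 scale, which held for 1188 genes that rose (5.98%) and 1479 that fell (7.44%). The median log2 fold change of all tested genes was -0.0107, and that figure and these 4 percentages are the background for each gene group. Of 14350 protein-coding genes 5.37% were called higher and 6.44% lower, and of 3473 long non-coding RNAs 8.09% and 11.3%, and the difference between the classes was not tested. Of the genes with a mean CPM under 1, 22.5% were called, and of those over 100 CPM, 3.82%.

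**Figure D1:**
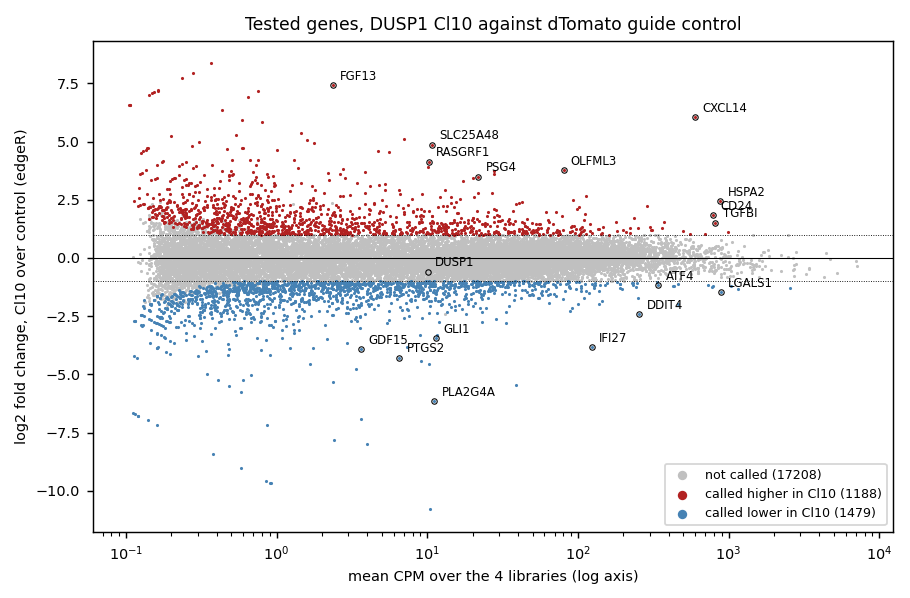
Log2 fold change of Cl10 over control from edgeR (vertical axis) against mean CPM over the 4 libraries (horizontal log axis) for the 19875 tested genes, with genes called higher in red (1188), called lower in blue (1479) and the rest in grey. Dotted lines mark the fold-change threshold of 1, circles mark 18 named genes, and DUSP1 lies inside the lines at -0.59.

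Among called genes whose mean CPM was 5 or more, the largest rises took in secreted proteins and signalling genes. RASGRF1, an exchange factor that loads RAS with GTP, had 67.9 and 54.2 normalized counts in the control libraries and 995 and 1182 in Cl10. Both Cl10 values were above the control values by a wide gap, and the log2 fold change was 4.14 (standard error 0.163, edgeR adjusted p = 2.39e-05). OLFML3, a secreted olfactomedin-domain protein, went from 546 and 681 to 8140 and 8643 normalized counts, a 13.7-fold difference of the means. NXPH3, a secreted ligand of neurexins, went from 215 and 225 to 3008 and 2823. FILIP1L, a filamin-interacting protein, had 81.3 and 60.6 in the control and 1008 and 1133 in Cl10, and SLC25A48, a mitochondrial carrier, had 38.5 and 41.5 against 1212 and 1124. In each of these genes the libraries of a group lay close together, and the standard errors of the log2 fold changes were between 0.0956 and 0.163. SLC25A48 spans the locus of CXCL14 on the opposite strand. The counting is not stated to use strand, so reads of the pair cannot be told apart, and CXCL14 went from 1023 and 999.5 to 70376 and 62545 normalized counts. Among called genes, the largest rises by the difference of CPM, beside that of CXCL14, were in HSPA2, CD24 and TGFBI. HSPA2, an HSP70 family chaperone, went from 13168 and 17566 to 83137 and 83826 normalized counts. CD24, a surface glycoprotein, went from 18786 and 20073 to 69675 and 68752, and TGFBI, a matrix protein induced by TGF-beta, from 23587 and 23890 to 67744 and 68497.

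The largest falls took in genes of prostaglandin metabolism, Hedgehog signalling and vitamin D activation. PTGS2, the inducible cyclooxygenase, had 879.6 and 516 normalized counts in the control libraries and 27.3 and 45.3 in Cl10. The control values were uneven, but both were far above those of Cl10, and the log2 fold change was -4.29 (standard error 0.344, edgeR adjusted p = 0.000196). GLI1, the transcription factor and target of Hedgehog signalling, went from 1221 and 1132 to 103 and 112. CYP27B1, the enzyme that makes active vitamin D, went from 1187 and 1169 to 131 and 107, and NPTX1, a secreted neuronal pentraxin, from 764 and 763 to 59.4 and 48.8. IFI27, an interferon-induced mitochondrial protein, fell from 11970 and 13953 to 865 and 952 normalized counts. Among called genes, the largest falls by the difference of CPM included KRT8, LGALS1, a galectin (66284 and 81107 to 27535 and 25167), RPL41, NEAT1 and TMSB10. LGALS1, GLI1 and CYP27B1 lie among genes that were lower too, with local medians (of the 50 nearest tested genes) of -0.64, -0.71 and -0.60. RPL41 shares sequence with many pseudogenes, so its counts are uncertain. LINC02582 had 1367 and 1135 raw counts in the control libraries and 0 and 1 in Cl10, a ratio of 2190 scaled by library with a 95% exact counting interval of 392 to 86500.

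**Figure D2:**
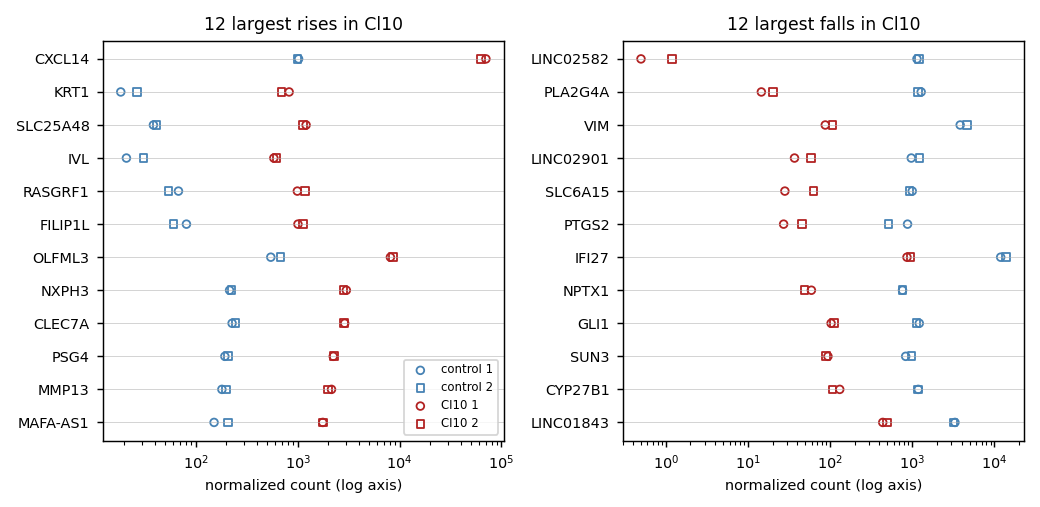
Normalized counts (horizontal log axis) of the 12 genes with the largest rises (left) and the 12 with the largest falls (right) among called genes whose mean CPM was 5 or more, with control libraries in blue and Cl10 libraries in red (circle, replicate 1; square, replicate 2). The libraries of a group lie together and apart from the other group in all 24 genes, and values under 0.5 are drawn at 0.5.

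DUSP1 itself was lower in Cl10 without passing the fold-change threshold. Its 737 and 628 normalized counts in the control libraries stood against 491 and 413 in Cl10, and the groups did not overlap. The log2 fold change was -0.59 (standard error 0.134, edgeR adjusted p = 0.0113), a mean of 452 ± 54.6 (SD, n = 2) against 683 ± 76.9 (SD, n = 2). Without the second Cl10 library it was -0.48 and did not pass (edgeR adjusted p = 0.0794). Of the 10 MAP kinase phosphatases tested, 3 rose and 4 fell, with a median log2 fold change of 0.00862. DUSP6, a cytoplasmic phosphatase specific for ERK and a target of ERK signalling, had 403 and 471 normalized counts in the control and 1094 and 1128 in Cl10. That is a log2 fold change of 1.35 (standard error 0.111, edgeR adjusted p = 0.000215), and DUSP6 and DUSP2, a nuclear phosphatase that rose from 149.9 and 197 to 395 and 337, were the only members called. Of the other members that fell, DUSP9 was at -0.83 and DUSP4 at -0.55 on the log2 scale.

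Among 17 MAP kinases and the kinases that activate them, 6 rose, 3 fell and 1 was called, with a median of 0.154. The called member was MAP2K6, a kinase that activates p38, at 38.5 and 51 normalized counts in the control and 115 and 129 in Cl10. MAPK7, which encodes ERK5, rose by 0.73 on the log2 scale, and MAPK11, which encodes p38 beta, fell (-0.66). Of 10 AP-1 subunits tested, of 11 listed, 4 rose and 1 fell, around a median of -0.0251. JUN had 1767 and 1800 normalized counts in the control libraries and 3944 and 4289 in Cl10 (log2 fold change 1.21, standard error 0.0834, edgeR adjusted p = 0.000125). FOS had 149.9 and 170.1 against 368 and 339, and both genes were called higher, with the groups apart. The other 3 subunits that passed changed by less than 1 on the log2 scale. The immediate-early and ERK feedback genes gave no common direction. Of 17 tested, of 18 listed, 3 rose and 7 fell, against 20.6% and 21.8% of all genes, with a median of -0.0556. PHLDA1, an ERK-induced gene, was the only called member and went from 12515 and 10853 to 5258 and 5246 normalized counts. The ETS factors ETV5 (-0.93) and ETV4 (-0.54) fell, while CCND1, which encodes cyclin D1, rose (0.70).

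Genes of the ATF4 response and of the unfolded protein response were lower in Cl10. ATF4 is a transcription factor made when translation initiation is slowed by amino acid shortage or endoplasmic reticulum stress, and its targets make and import amino acids and control survival under stress. Of the 22 listed genes, all tested, 17 fell, 1 rose and 4 did not pass, and 10 of the falls were called, against 21.8% of all genes falling and 7.44% called lower. The median log2 fold change was -0.708. DDIT4, a stress-induced inhibitor of mTORC1, had 26326 and 22113 normalized counts in the control and 4527 and 4507 in Cl10 (log2 fold change -2.42, standard error 0.109, edgeR adjusted p = 3.7e-05). DDIT3, which encodes the pro-apoptotic factor CHOP, went from 1715 and 1707 to 313 and 335. ATF4 itself went from 25534 and 27576 to 12020 and 11760 normalized counts. In these genes both Cl10 libraries lay well under the lower control library and close to each other. The called falls took in ASNS, the asparagine synthetase (973 and 721 to 277 and 269), CHAC1, which degrades glutathione (1814 and 1526 to 396 and 459.7), and the serine synthesis enzymes PSAT1 (-1.05) and PSPH (-1.07). TRIB3 (-1.42), SESN2 (-1.05) and XBP1, a transcription factor of the unfolded protein response (-1.13), were called too. The gene that rose was CALR, a chaperone of the endoplasmic reticulum (0.28). It did not pass when the first or the second Cl10 library was left out (0.27 and 0.29). CALR also did not pass in a fit over 6 libraries (edgeR adjusted p = 0.063), with the replicate number as a block (0.133) or with the local median taken off (0.051). SLC7A11, the cystine transporter and another ATF4 target, is on the amino acid transporter list and fell from 5607 and 3699 to 1368 and 1432 normalized counts, with control values far apart. Of the 22 tested amino acid transporters, of 25 listed, 6 rose and 6 fell (median 0.00840), among them SLC1A3, a glutamate transporter that went from 1708 and 1766 to 10877 and 11025. DDIT3, ATF4 and XBP1 lie in parts of chromosomes 12 and 22 whose other genes were lower as well, where the median of the 50 nearest tested genes was -0.80, -0.68 and -0.59, while the local medians of CHAC1 (-0.06), ASNS (-0.04) and PSAT1 (0.12) were near 0.

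The promoters of ASNS and CHAC1 are printed because both hold the letters of an ATF4 response element and both genes were called lower. The motif was searched as TGATGNAA on both strands of RefSeq promoters (GRCh38, 250 bases before to 50 after each start), of which 21 of the 22 listed genes had one. It was in 4 of these 21, in 3.67% of all 27305 promoters and in 1.77% of the 12799 promoters of tested genes. The other 2 of the 4 genes did not pass the test. Capitals mark the motif, which in CHAC1 stands on the opposite strand, so that it reads as its reverse complement. The sequences lie at chr7:97872359-97872658 (minus strand) and chr15:40953221-40953520 (plus strand).
ASNS promoter: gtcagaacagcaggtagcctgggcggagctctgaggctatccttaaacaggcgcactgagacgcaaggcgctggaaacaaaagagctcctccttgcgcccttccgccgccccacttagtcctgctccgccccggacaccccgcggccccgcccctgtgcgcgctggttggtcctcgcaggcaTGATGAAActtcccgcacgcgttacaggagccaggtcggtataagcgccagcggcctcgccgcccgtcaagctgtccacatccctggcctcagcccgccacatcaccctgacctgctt
CHAC1 promoter: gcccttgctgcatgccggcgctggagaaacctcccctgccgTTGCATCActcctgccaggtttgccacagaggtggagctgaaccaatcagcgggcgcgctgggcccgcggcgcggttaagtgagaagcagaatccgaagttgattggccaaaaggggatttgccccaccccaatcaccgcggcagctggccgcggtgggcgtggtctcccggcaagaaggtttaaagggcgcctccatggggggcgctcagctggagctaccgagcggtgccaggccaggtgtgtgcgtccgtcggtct
A match of these letters is a description of the sequence and was not tested for binding.

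Target genes of YAP and TEAD rose in Cl10. YAP is a transcriptional co-activator that binds TEAD factors when cells spread or are under tension and when the Hippo kinases are inactive, and CCN1, CCN2 and ANKRD1 are its best known targets. All 19 genes of the list were tested, 13 rose, none fell and 7 were called higher, against 20.6% of all genes rising and 5.98% called higher. The median log2 fold change was 0.856. ANKRD1, a nuclear ankyrin repeat protein, had 19.3 and 26.6 normalized counts in the control libraries and 259 and 198 in Cl10 (log2 fold change 3.33, standard error 0.258, edgeR adjusted p = 0.00018). CCN1 (CYR61), a matricellular integrin ligand, had 3118 and 3780 against 7958 and 8216, and CCN2 (CTGF) had 62.8 and 49.98 against 173 and 145. FJX1, a Golgi kinase homologue of Drosophila four-jointed, had 6154 and 6300 against 19528 and 20825. In all of these the lower Cl10 library was above the higher control library. DLC1 (1.72), FOXF2 (1.28) and IGFBP3 (1.04) completed the called members. AMOTL2, an angiomotin that holds YAP in the cytoplasm, rose from 2714 and 2165 to 4770 and 4777.

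**Figure D3:**
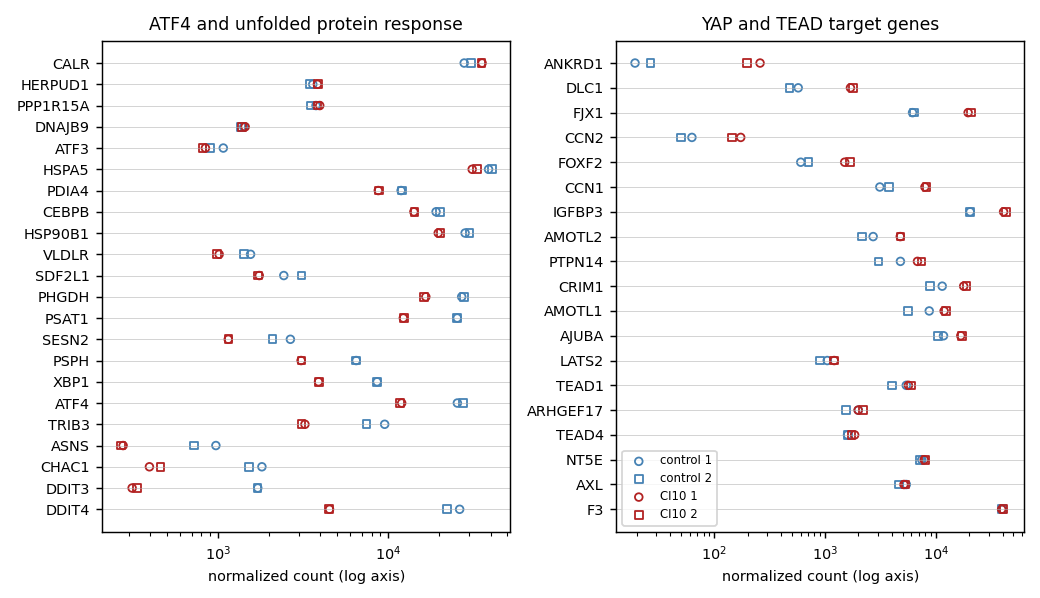
Normalized counts (horizontal log axis) per library for the 22 genes of the ATF4 and unfolded protein response list (left) and the 19 YAP and TEAD target genes (right), ordered by log2 fold change, with control libraries in blue and Cl10 in red (circle, replicate 1; square, replicate 2). Most red symbols lie to the left of the blue ones in the left panel and to the right of them in the right panel.

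RefSeq promoters were matched for 13 of the 19 YAP and TEAD targets. The core TEAD motif GGAATG, searched on both strands, was in 5 of the 13 (CCN2, ANKRD1 and FOXF2 among them), in 14% of all 27305 promoters and in 11.1% of the 12799 promoters of tested genes. CCN2 held 3 copies that begin 169, 104 and 95 bases before its start, and ANKRD1 held 2 copies that begin 220 and 128 bases before. These 2 promoters are printed, with the motif in capitals, since they hold more than 1 copy and their genes were called higher. They lie at chr6:131951323-131951622 and chr10:90921038-90921337, both on the minus strand.
CCN2 promoter: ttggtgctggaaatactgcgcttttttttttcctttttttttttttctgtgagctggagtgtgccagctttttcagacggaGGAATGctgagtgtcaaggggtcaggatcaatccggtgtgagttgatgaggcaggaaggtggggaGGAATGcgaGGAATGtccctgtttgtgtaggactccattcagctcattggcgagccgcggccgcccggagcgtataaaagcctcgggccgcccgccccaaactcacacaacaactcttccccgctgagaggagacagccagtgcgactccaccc
ANKRD1 promoter: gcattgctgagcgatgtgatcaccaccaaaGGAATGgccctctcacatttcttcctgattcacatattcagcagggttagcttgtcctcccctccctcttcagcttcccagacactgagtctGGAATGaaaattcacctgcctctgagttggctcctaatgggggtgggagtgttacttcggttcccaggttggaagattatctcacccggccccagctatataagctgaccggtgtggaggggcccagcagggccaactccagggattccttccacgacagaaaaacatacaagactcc

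Focal adhesion genes, which tie integrins to actin, had more rises than falls. Of 25 genes, all tested, 15 rose and 3 fell, with a median of 0.310. Of these, 2 were called higher and 1 lower, against 5.98% and 7.44% of all genes. The alpha-parvin gene PARVA rose from 1087 and 1002 to 2784 and 2944 normalized counts, and its paralogue PARVB fell from 1814 and 2083 to 739 and 723. FERMT1 (kindlin-1, 1.25) and FLNA (filamin A, 0.97) rose. Of 18 integrins tested, of 20 listed, 4 rose and 4 fell. ITGB6, the beta chain of an epithelial receptor that activates TGF-beta, went from 522 and 548 to 1661 and 1685 normalized counts. ITGA5, the fibronectin receptor chain, went the other way, from 5834 and 5066 to 1795 and 1926, and ITGA6 rose (0.97) while ITGA3 fell (-0.81).

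The TGF-beta and BMP list had more rises than falls. Of 32 genes tested, of 36 listed, 14 rose and 7 fell, 8 were called higher and 2 lower, and the median was 0.167. Of all genes, 20.6% rose and 21.8% fell, and 5.98% were called higher and 7.44% lower. BMP2, a ligand, had 749 and 749 normalized counts in the control libraries and 3824 and 3846 in Cl10 (log2 fold change 2.36, standard error 0.0795, edgeR adjusted p = 1.45e-05). SMAD6, an inhibitory SMAD that BMP signalling induces, had 741 and 759 against 4023 and 3983. SMAD7 (1.27), BAMBI, a decoy receptor (1.14), INHBB, an activin chain (2.17), and NOG, which binds BMPs (1.10), were called higher too, as was the receptor TGFBR2 (1.39). The falls included GDF15, a stress-induced cytokine, with 409.6 and 356 against 23.4 and 27.4 normalized counts, and CHRD, another BMP antagonist (-1.78). ID1, the most abundant gene of the list, also fell, from 30304 and 35852 to 22383 and 21176 (-0.60). In WNT signalling, 31 of 38 genes were tested, of which 7 rose and 12 fell (2 called higher and 5 lower, median -0.0935), against the same shares of all genes. WNT5A, a ligand that acts mainly without beta-catenin, went from 152 and 113 to 849.7 and 952. WNT10B went from 442 and 405 to 104 and 106, and NKD2, an inhibitor of the pathway, from 585 and 677 to 143 and 125.

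Cornified envelope proteins harden the outer layer of squamous epithelium, and many of their genes on chromosome 1 were called higher in Cl10. Of 15 SPRR and late envelope genes 9 were tested, and 8 of them were called higher, against 5.98% of all genes. Since a gene is tested when it reaches the minimum count in either group alone, this count describes the tested members and not the family. The list median was 1.87. The genes are neighbours in the epidermal differentiation complex of chromosome 1, and the median over the members of their local median was 0.560. SPRR1B, a small proline-rich envelope protein, had 1069 and 1355 normalized counts in the control and 3992 and 3832 in Cl10. SPRR3 had 10.9 and 3.19 against 141 and 137. Of 20 envelope precursors and crosslinkers 14 were tested, 6 rose and were called, 1 fell and 7 did not pass, with a median of 0.329. RPTN (repetin), a precursor of the same complex, had 0 counts in both control libraries and was at least 14.4-fold higher in Cl10, against a floor of 3 counts in each library. Members of the SPRR2 group are near-identical in sequence, so that SPRR2D and SPRR2E, both called higher, are uncertain. TGM1, the enzyme that crosslinks the envelope, fell from 583 and 460.4 to 319 and 266.

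Of 18 antimicrobial and antiprotease genes 8 were tested, 6 were called higher, against 5.98% of all genes, and 1 fell. WFDC5, RNASE7 and LCN2 were tested only through their counts in Cl10 and 10 genes were not tested, so this count too describes the tested members alone. LCN2 did not pass with DESeq2 in place of edgeR (log2 fold change 2.03, DESeq2 adjusted p = 0.0869). It also did not pass without the second control library (log2 fold change 1.6) or the first of Cl10 (1.47). SLPI, the secretory leukocyte protease inhibitor, had 553 and 668 normalized counts in the control libraries and 2642 and 2510 in Cl10 (log2 fold change 2.08, standard error 0.11, edgeR adjusted p = 5.64e-05). PI3 (elafin) had 138 and 147 against 719 and 655, and SPINK6, an inhibitor of kallikreins, 27.6 and 35.1 against 396 and 409.7. The means of SLPI, PI3 and SPINK6 differed 4.22-fold, 4.82-fold and 12.8-fold, and no library of 1 group reached into the other. The kallikrein-related peptidases themselves mostly fell, with 5 of 8 tested (of 15) lower and a median of -0.574. KLK5, which starts the kallikrein cascade in skin, was the member that rose, from 86.3 and 84 to 429 and 524. The SERPINB inhibitors had 5 falls and 2 rises among 9 tested genes (of 13). SERPINB1, an inhibitor of neutrophil proteases, fell from 2201 and 2180 to 675 and 659.8, whereas SERPINB5 (maspin) rose from 6646 and 7036 to 13051 and 12891. SERPINB4 had 85.4 and 62.7 normalized counts in the control libraries and 2 raw counts in each library of Cl10, a ratio of 35.2 with a 95% exact counting interval of 13.5 to 131, but it is almost identical to SERPINB3 and the split of their reads is uncertain.

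Simple epithelial keratins, the filaments of single-layered and glandular epithelium, fell. All 4 tested genes of 5 were lower, with a median of -0.802. KRT8 had 86459 and 98429 normalized counts in the control libraries and 36268 and 37209 in Cl10, and its partner KRT18 had 21464 and 27261 against 13576 and 13487. The differences were -1.33 and -0.85 on the log2 scale, with local medians of -0.45 and -0.49, and KRT18 did not pass once the local median was taken off (edgeR adjusted p = 0.0558). Of the 9 basal and stress keratins, 4 rose and 1 fell. KRT16, a keratin of activated keratinocytes, went from 3120 and 3139 to 6936 and 6585, and KRT15 from 10635 and 11565 to 20220 and 19184. The tight junction genes gave no common direction. Of 16 tested, of 21 listed, 4 rose and 3 fell, and the median of 0.0980 became -0.074 with the local median taken off. The claudin gene CLDN1, a tight junction protein of stratified epithelium, rose from 823 and 816 to 3228 and 3475. CLDN4, the most abundant gene of that list, fell (-0.35).

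Several pregnancy-specific glycoproteins, placental members of the CEACAM family, were called higher in Cl10. Of the 16 genes of the family that were listed, 9 were tested, 6 were called higher (against 5.98% of all genes) and 3 did not pass. PSG1, PSG6 and PSG9 were tested only through their counts in Cl10 and 7 genes were not tested, so this count describes the tested members and not the family. PSG4 had 194 and 207 normalized counts in the control libraries and 2239 and 2265 in Cl10 (log2 fold change 3.49, standard error 0.0965, edgeR adjusted p = 8.05e-06). PSG5 had 26 and 14.9 against 505 and 509.8. PSG1 had 0 and 2 raw counts in the control and 63 and 58 in Cl10, a ratio of 69.2 (95% exact counting interval 18.7 to 578). PSG6 had 1 and 0 against 75 and 59, a ratio of 153 (27.0 to 6090). The genes lie side by side on chromosome 19 and are close copies of each other, so the share of the reads that belongs to each is uncertain. Another placental gene, ALPP (placental alkaline phosphatase), which is outside the lists and was singled out after its values were seen, went from 5097 and 6258 to 24922 and 28595, with the same uncertainty against its copy ALPG.

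Interferon-stimulated genes changed in both directions. Of 44 genes, all tested, 24 rose and 12 fell, with a median of 0.391. Of these, 7 were called higher and 3 lower, against 5.98% and 7.44% of all genes. The rises included RSAD2 (viperin), from 293 and 262 to 1469 and 1466 normalized counts, GBP1, a GTPase induced by interferon-gamma, from 262 and 282 to 1602 and 1572, and CMPK2, from 402 and 349.8 to 2629 and 2617. MX1, an antiviral GTPase, went from 3400 and 3365 to 8542 and 8437. The called falls were IFI27, OASL (12009 and 13315 to 3577 and 3376) and DDX60, an RNA sensor (7651 and 6480 to 2881 and 2832). In each of these 7 genes both Cl10 libraries lay on 1 side of both control libraries.

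Cytokine genes were also split. Of 17 IL-1 family members and other cytokines tested (of 23), 8 fell and 5 rose, with a median of -0.530. IL1A had 534 and 449 normalized counts in the control libraries and 210.2 and 193 in Cl10, and IL1B had 1093 and 1046 against 424 and 362. Their antagonist IL1RN went from 352 and 367 to 737 and 734. Both agonists were called lower and the antagonist higher. IL24, a cytokine of the IL-10 family, fell most, from 905 and 883 to 133 and 166 (log2 fold change -2.59, standard error 0.135, edgeR adjusted p = 5.47e-05), and CSF1, the macrophage growth factor, rose from 428 and 413 to 1038 and 1010. With the local median taken off every gene, the median of this list was 0.123, and the local medians of IL1A, IL1B and IL24 themselves were -0.07, -0.07 and -0.08. Chemokine ligands had 6 rises and 4 falls among 14 tested (of 20). CCL2 and CXCL10, both called higher, were tested only through their counts in Cl10, and CX3CL1 only through its counts in the control. These counts of rises and falls therefore describe the tested members alone. Apart from CXCL14, CXCL8 (interleukin-8) rose from 194 and 218 to 435 and 486, CCL5 fell from 793 and 771 to 264 and 287, and CX3CL1 fell from 105 and 61.7 to 5.84 and 4.76.

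Genes of eicosanoid synthesis, the pathway of prostaglandins, mostly fell, PTGS2 and HPGD among them. HPGD, which inactivates prostaglandin E2, had 297 and 313 normalized counts in the control libraries and 25.3 and 22.6 in Cl10 (log2 fold change -3.66, standard error 0.19, edgeR adjusted p = 5.42e-05). PTGS1, the constitutive cyclooxygenase, rose from 446 and 376 to 1186 and 1182. In all, 7 of 13 tested genes (of 19) fell and 2 rose, with a median of -0.320. PACERR, a non-coding RNA beside PTGS2 on the opposite strand, had no count in either Cl10 library and was at least 4.81-fold lower.

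Matrix metalloproteinases, which cut collagens and other matrix proteins, changed in both directions. Of 20 such genes and their inhibitors tested (of 22), 7 rose and all 7 were called, 6 fell and 2 of those were called, and the median was 0.0501. Of all genes, 5.98% were called higher and 7.44% lower. MMP1, MMP3, MMP10 and MMP13, collagenases and stromelysins that sit together on chromosome 11, were all called higher. MMP1 (interstitial collagenase) had 318 and 323 normalized counts in the control and 1997 and 1952 in Cl10. MMP13 (collagenase 3) had 181 and 199.9 against 2151 and 1976, with a log2 fold change of 3.44 (standard error 0.108, edgeR adjusted p = 1.29e-05). MMP3 and MMP10 were near the floor in the control, at 1.68 and 2.13 and at 8.38 and 14.9, and MMP3 did not pass without the first control library (edgeR adjusted p = 0.0728) or the second of Cl10 (0.0858). MMP11 (stromelysin 3), on chromosome 22, fell from 718 and 726 to 135 and 124, and MMP2, the gelatinase, fell by less (-0.69). Of the inhibitors, TIMP3 rose (1.42) and TIMP1 fell (-0.81). The urokinase gene PLAU (-0.88) and its receptor PLAUR (-0.88) fell as well.

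VEGF and PDGF genes, which guide vessel growth, were mostly lower where they passed. Of 15 VEGF and PDGF ligands and receptors tested (of 18), 8 fell and 1 rose, 4 of the falls were called, and the median was -0.713. Of all genes, 7.44% were called lower. PDGFA had 1425 and 1607 normalized counts in the control libraries and 429 and 466 in Cl10, in a part of chromosome 7 with a local median of -0.77. PDGFC had 417 and 425 against 174 and 205, and FLT4, the receptor of lymphatic growth factors, 343 and 297 against 61.3 and 96.5. VEGFD had 30 and 25 raw counts in the control and 2 in each Cl10 library, a ratio of 12 (95% exact counting interval 4.44 to 45.7). In the FGF family (14 tested of 19), 6 rose and 6 fell. FGF19, an endocrine FGF, went from 1144 and 1098 to 290.1 and 276, and its receptor FGFR4 from 3258 and 3362 to 1577 and 1516. FGFR2 moved up, from 2198 and 2042 to 4794 and 4977. FGF13, an intracellular member that binds sodium channels, had 3 and 0 raw counts in the control and 256 and 233 in Cl10, a ratio of 186 (63.4 to 907).

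Genes of the Notch pathway, which guides the fate of neighbouring cells, were mostly lower where they passed. Of 19 genes tested (of 20), 8 fell and 1 rose, with a median of -0.462. NOTCH3 had 6876 and 4387 normalized counts in the control and 2210 and 2480 in Cl10, MFNG, a glycosyltransferase that modifies Notch receptors, 496 and 567 against 70.1 and 84.6. These were the 2 members called, with local medians of 0.0051 for NOTCH3 and -0.60 for MFNG. The HOX genes, which keep positional identity, had 18 falls and 5 rises among 33 tested (of 37), with a median of -0.653. Of these, 8 were called lower and 1 higher, against 7.44% and 5.98% of all genes. HOXA9 had 1261 and 1480 against 327 and 336, and HOXC13 rose from 906 and 1066 to 2765 and 2650. The median of the local medians of the HOX genes was -0.557, that is, the genes around them were lower as well.

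More p53 targets and respiratory genes fell than rose, and more cell cycle genes rose than fell. Of 19 p53 targets tested (of 20), 9 fell and 4 rose (median -0.258), with MDM2, the ubiquitin ligase of p53, at -0.63 and TP53I3, a quinone reductase, at 1.52. Of 35 genes of the S, G2 and M phases, 16 rose and 5 fell (median 0.131). CCNE2, a cyclin of S phase entry, went from 138 and 146 to 492 and 500.2 normalized counts, E2F1 from 2291 and 2619 to 5184 and 5172, and the replication licensing gene MCM4 from 13090 and 12685 to 25046 and 25397. HMMR, a mitotic spindle gene, was the only called fall (-1.02). The 13 mitochondrially encoded genes, whose share of all counts was given above, gave 10 falls and 1 rise (median -0.474). MT-CO2 had 285300 and 332590 normalized counts against 174960 and 172530, while MT-ND1 rose from 18195 and 20267 to 28330 and 27885, a rise that did not pass without either Cl10 library (edgeR adjusted p = 0.0605 and 0.0535). Of the 39 nuclear genes of respiratory chain subunits, 15 fell and none rose (median -0.260). Hypoxia response and glycolysis genes had 10 falls and 3 rises among 32 (median -0.197), led by SLC16A3, a lactate exporter (-1.19). SLC16A3 lies among genes that were lower too, with a local median of -0.66. NRF2 targets had 9 falls and 3 rises among 27 (median -0.203), with AKR1B10, an aldo-keto reductase, at 2457 and 2880 against 9965 and 9638.

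Further lists of growth factor and metabolic genes each held a few large changes. Of 14 EGF ligands and ERBB receptors tested (of 15), 5 rose and 2 fell. AREG (amphiregulin), a ligand of the EGF receptor, fell from 2348 and 2214 to 862 and 884 normalized counts, and ERRFI1, a feedback inhibitor of that receptor, rose by 0.72 on the log2 scale. In the IGF list (13 tested of 15, with 4 rises and 1 fall), IGFBP6, which binds IGF-II, went from 36069 and 46798 to 10663 and 10076, and IGFBP5 from 9.21 and 11.7 to 112 and 83.4. Of 25 genes of fatty acid synthesis and storage, 8 rose and none fell (median 0.152), among them the desaturases FADS1 (0.81) and FADS2 (906 and 1022 to 2907 and 2880). The local median at FADS2, beside the end of a chromosome 11 stretch described further on, was 0.50. The 23 cholesterol synthesis genes had 4 rises, 7 falls and no call. Of 21 genes of retinoid metabolism tested (of 25), 6 rose and 7 fell. CYP26A1, which degrades retinoic acid, rose from 46.9 and 49.98 to 446 and 391, with a log2 fold change of 3.11 (standard error 0.166, edgeR adjusted p = 5.68e-05). Among 24 apoptosis regulators 9 rose and 6 fell, with CASP10, an initiator caspase, called higher (1.53) and BIK, a pro-apoptotic BH3 protein, called lower (-1.25).

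Some called genes were neighbours. Runs of at least 4 tested genes in a row that were called in the same direction, a rule chosen after the values were seen, numbered 12 for rises (65 genes) and 15 for falls (68 genes). The longest held 15 genes of the epidermal differentiation complex, from TCHH to SPRR2D (chr1:152106317-153041931, median log2 fold change 2.0), and the next run began right after it with SPRR2E and ended with S100A9 and S100A8. Other runs of rises held DLX1 and DLX2, homeobox genes (224 and 233 to 1402 and 1377 normalized counts for DLX2), FOXQ1 and FOXF2, forkhead genes (294 and 332 to 2063 and 2205 for FOXQ1), and the MMP and PSG clusters. Runs of falls held the ligands of the natural killer receptor NKG2D, namely RAET1G, ULBP2, ULBP1, RAET1K and RAET1L on chromosome 6 (median -1.58, with 1239 and 980.4 against 259 and 293 for ULBP1), and a run of 7 genes on chromosome 12 with GLI1, MARS1 and DDIT3 (median -1.46). The 50 nearest genes of the members of these runs had medians of -0.58 and -0.69, and RAET1G did not pass once the local median was taken off (-0.58, edgeR adjusted p = 0.0527). ULBP and RAET1 genes are related copies, and the split of their reads is uncertain. The run with PTGS2, PACERR and PLA2G4A on chromosome 1 had a median of -5.22, and the 50 nearest genes of its members had a median of 0.0600. Around CXCL14 the calls were broken, since SLC25A48, CXCL14 and TGFBI were called higher while 2 of the 3 tested genes between CXCL14 and TGFBI did not pass.

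On a wider scale, whole parts of chromosomes were lower in Cl10. The median log2 fold change of the 50 nearest tested genes was at or below -0.5 over 14 stretches of at least 20 genes and at or above 0.5 over 1, and these hold 1210 genes in all. On chromosome 7 the 216 tested genes between 135853 and 33109405 had a median of -0.836, 191 of them were below 0 and 37.5% were called lower. On chromosome 4 the 127 genes from the end of the short arm to position 15938740 had a median of -0.891, with 33.9% called lower. The 167 genes of chromosome 22 between 33162226 and 42720870 had a median of -0.636, and the stretch on chromosome 11 between 58579063 and 61797238 a median of 0.572. The stretches were picked by these same values, so the percentages describe them and test nothing. They held 323 of the genes called lower, which is 21.8% of those genes. After the local median was taken off every gene, 1167 genes were called higher and 1206 lower in place of 1188 and 1479.

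**Figure D4:**
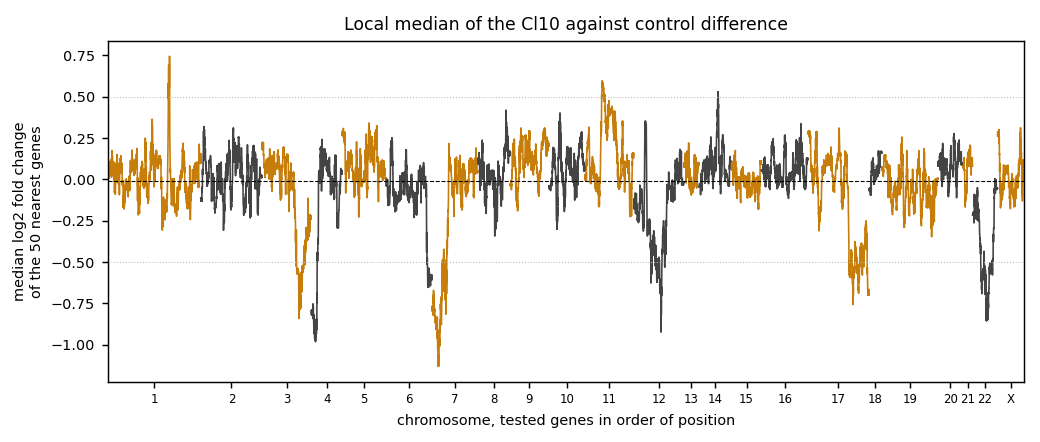
Median log2 fold change of Cl10 over control for the 50 tested genes nearest to each gene (vertical axis), with the genes in order of position along chromosomes 1 to 22 and X (horizontal axis, alternating colours). Dips below -0.5 stand out on chromosomes 3, 4, 6, 7, 12, 17 and 22, peaks above 0.5 are short, the dashed line is the median of all tested genes, and dotted lines mark 0.5 and -0.5.

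Cl1 shares the target gene, the guides and the selection with Cl10 but descends from another cell, and the direct comparison of both clones shows where Cl10 stands apart from it. Of 19818 genes tested, 886 were called higher in Cl10 than in Cl1 (4.47%) and 1245 lower (6.28%). This comparison and the comparison with the control share the Cl10 libraries, so the values are given side by side and are not independent. DUSP1 was higher in Cl10 than in Cl1 by 0.48 on the log2 scale (edgeR adjusted p = 0.00817). Over the chromosome stretches described above, the medians against Cl1 were -0.803 on chromosome 7, -0.870 on chromosome 4, -0.505 on chromosome 22 and 0.161 on chromosome 11. In the ATF4 group, DDIT4 differed from Cl1 by -1.72 on the log2 scale (edgeR adjusted p = 8.74e-10) and ATF4 by -0.84, while ASNS (0.03), CHAC1 (0.08) and PSAT1 (0.14) did not differ from Cl1 past the threshold. Among the YAP targets, CCN1 (1.39), CCN2 (1.18), ANKRD1 (1.58) and FJX1 (1.18) were called higher than in Cl1.

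Several of the largest changes against the control were also large against Cl1. NXPH3 was 3.65 higher on the log2 scale, FILIP1L 4.31, RASGRF1 2.88 and MMP13 2.37, and NPTX1 was -4.16, HPGD -4.16, GLI1 -2.20 and IFI27 -2.21. CXCL14, at 6.04 against the control, differed less from Cl1 (1.07). Others did not pass between the clones, such as CD24 (0.14, edgeR adjusted p = 0.0857) and SMAD7 (0.14, 0.175). A few genes were placed on opposite sides. IL1B was called lower than the control (-1.44) and higher than Cl1 (2.54), and IL1A likewise (-1.28 and 2.08). FOS was called higher than the control (1.15) and lower than Cl1 (-1.51), and IGFBP3 showed the same order (1.04 and -1.21). For these genes the level in Cl10 lay between those of the control and Cl1.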

How the data were processed

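Poly(A) RNA of A253 cells was sequenced as paired-end reads on an Illumina platform. The values used are raw counts of reads per gene, which the authors deposited in 1 table of 58735 genes for the 6 libraries of the DUSP1 experiment, without normalization. The submitters' processing notes name hg38, HISAT2, StringTie and DESeq, the study's methods name HISAT2, HTSeq and DESeq2, and versions, annotation and strand setting are not given in the sources used here. The kit is given as Illumina Stranded mRNA Prep in the labels and as TruSeq in the methods. Near-identical, overlapping and antisense genes therefore carry uncertain counts. Gene identifiers were paired with symbols and positions through GENCODE v44 (58207 matched, with 99.906% of all counts), which also replaced 27 names that had turned into dates. No column was left unmapped.

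The 4 libraries of Cl10 and the control were tested with edgeR 4.0.16 in R 4.3.3 (genes kept by filterByExpr, TMM factors, quasi-likelihood F test, Benjamini-Hochberg adjustment over all tested genes), and Cl10 against Cl1 in a fit of their own 4 libraries. A gene rose or fell at an adjusted p under 0.05 and was called when the log2 fold change also exceeded 1 in size. The standard error is the fitted log2 fold change over the square root of F. Gene groups came from 66 hand-written lists, each described by its counts and median log2 fold change. A gene with no count in a group was set against a floor of 3 counts in each library, and ratios against a group with 1 to 4 counts have exact 95% intervals that cover counting error only. In counts simulated from the control means for 19152 genes (Cl10 against control), 200 of 200 genes changed 4-fold were recovered. The changed genes were drawn only from those with a mean of more than 50 counts in the control. The recovery therefore does not cover genes of low count, and it does not measure false calls. The genes and lists were chosen with earlier results of these data known. The naming rule took DUSP1, then among called genes whose mean CPM was 5 or more the 12 largest log2 fold changes in each direction and the 6 largest CPM differences in each direction, then up to 3 called members of each list in each direction and its most abundant member. Another 59 genes were named after their values were seen, and 1 gene that the rule took is not reported here. Alternatives were DESeq2 1.42.0, its size factors, library size alone, other count filters, the replicate number as a block, each library left out, a fit over 6 libraries and an offset for the median of the 50 nearest genes. Replicate numbers did not pair the libraries (r = -0.0222 across 19875 genes, which are not independent, for the difference between replicates 1 and 2 in both groups).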

Additional observations from a re-analysis of the deposited data

Results flagged for a closer look

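The direct comparison of the 2 DUSP1 clones found differences that the comparison with the control alone does not show. In the fit of the Cl10 and Cl1 libraries, 886 genes were called higher in Cl10 and 1245 lower. A few genes named above were called in opposite directions against the control and against Cl1, so that Cl10 lay between them. FOS was 1.15 against the control and -1.51 against Cl1 on the log2 scale (edgeR adjusted p = 7.62e-07 for Cl1). IGFBP3 was 1.04 and -1.21, and S100A9, a calcium-binding protein of inflamed epithelium, 1.20 and -1.62. IL1A was -1.28 and 2.08, and IL1B -1.44 and 2.54. Both comparisons use the same 2 Cl10 libraries. With 2 libraries in each group, no library could be tested as an outlier.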

How the results depend on the processing

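Against the control, the alternatives gave between 878 and 1474 genes called higher (1188 as reported) and between 1140 and 1755 called lower (1479). Against Cl1 they gave 593 to 1013 called higher (886) and 919 to 1390 called lower (1245). The number of genes past the adjusted p alone depended on the libraries of both groups. Leaving out each library in turn gave 2376 to 5914 higher (4103 as reported) and 2765 to 5974 lower (4336). The lowest values, 2376 and 2765, came without the second Cl10 library, and 2444 and 2819 without the first. In these fits a lone library is assumed to vary like the other group. The replicate numbers share only a number, and with the replicate number as a block 1287 genes were called higher and 1570 lower. Among the named genes that were compared over the alternatives, the block changed the call of CALR only (edgeR adjusted p = 0.133).

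The alternatives were compared for 178 of the genes named. Of these, 169 kept their direction and their side of the adjusted p in every alternative that tested them. KRT5, which did not pass, passed as higher with the local median subtracted (0.40, edgeR adjusted p = 0.0136) and was between -0.06 and 0.01 with each library left out, the latter without the second of Cl10. Of the list medians, 18 of 66 changed sign in some alternative. With the local median taken off, the cytokine, integrin and WNT medians became 0.123, 0.144 and 0.013, and with a minimum of 10 counts in all libraries the chemokine and FGF medians became -0.162 and -0.134. The cause was not tested. What depth limits is seen in the genes under 1 CPM, whose fold changes rest on few counts, and genes with no count in a group have only a bound.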
